A study of Mus musculus with 72 samples.

Results

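The 4 genes Upp2, Dpyd, Dpys and Upb1 encode enzymes that break uracil compounds down in the liver. They were taken by symbol from a liver table of 22823 genes, and the 16 exon bins of Dpys were taken from files of 472109 bins each. Exon bins are the pieces left when the exons of all transcripts of a gene are cut at every exon edge. The members were chosen by measured values of these libraries, the difference of their liver levels, and of the exon bins of Dpys, between 2 diets. Their diet differences are therefore given as descriptions without a test. Tests are given for time of day, for sex, for the diet difference between the sexes and for a second tissue, none of which chose them.

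Liver RNA came from C57BL/6J mice, 8 to 12 weeks old when bought, that ate a methionine- and choline-deficient diet (MCD) or its isocaloric control. Mice lived under 12 h of light and 12 h of darkness for 10 days, then in constant darkness on day 11, when livers were taken every 4 h from circadian time 0 (CT0, the start of the subjective day) to CT20. Each of the 12 liver groups held 3 mice, 2 males (replicates 1 and 2) and 1 female (replicate 3). The protocol speaks of male mice only, and the sample labels were followed. The 2 control males at CT8 share 1 column name and are called control CT08 (a) and (b). Brains of the study's mice gave 36 libraries of the suprachiasmatic nucleus (SCN), the hypothalamic clock, cut out by laser.

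In the liver, surplus uracil and thymine are degraded by the reductive pathway. Upp2 (uridine phosphorylase 2) frees uracil from uridine. Dpyd (dihydropyrimidine dehydrogenase) then reduces uracil or thymine and is rate-limiting. Dpys (dihydropyrimidinase) opens the reduced ring, and Upb1 (beta-ureidopropionase) removes ammonia and carbon dioxide to leave beta-alanine or beta-aminoisobutyrate. The liver and the kidney are the main sites of the pathway, and Dpyd also clears the drug 5-fluorouracil.

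On GRCm38, Upp2 lies at 2:58567298-58792971, Dpyd at 3:118562129-119432924 and Upb1 at 10:75401115-75441679, all on the plus strand. Dpys lies at 15:39768487-39857470 on the minus strand (GRCm38, GENCODE M21 annotation). Its annotated transcripts Dpys-201 and Dpys-202 have 10 exons each, encode the same 519 codons and differ in the last exon, which lies past the stop codon. Dpys-203 joins the same exon 1 to another exon of 861 bases inside intron 1, at 15:39855877-39856737, and ends there. That exon is bin 14 in the numbering of the files, in which bin 15 is exon 1, bins 13 down to 5 are exons 2 to 9, bins 2 to 4 are the last exon of Dpys-202 and bin 1 is that of Dpys-201. The 2 junctions are shown because they are where the transcripts with and without bin 14 part. Lower case marks the last 30 bases of exon 1, which both transcripts share, and capitals mark the first 30 bases of the exon that follows.
Dpys-201, exon 1 to exon 2: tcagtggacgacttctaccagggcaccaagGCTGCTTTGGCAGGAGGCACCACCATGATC
Dpys-203, exon 1 to the bin 14 exon: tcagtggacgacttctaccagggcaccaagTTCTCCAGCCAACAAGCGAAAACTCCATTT
Exon 1 ends at base 39857099, exon 2 starts at 39846767 and the bin 14 exon at 39856737. In Dpys-203 the reading frame goes on for 11 codons past the 88 whole codons of exon 1 and then meets a stop, so that the open frame has 99 codons against 519. The files hold counts per bin and no reads that span a junction, so neither junction was counted directly.

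The liver libraries held 52.6 to 86.7 M gene counts (median 64.4 M). Levels are given in CPM, read counts relative to library size, with library sizes scaled by the trimmed mean of M-values (TMM). The whole liver responded widely to the diet: 46.6% of the 20249 genes tested passed an adjusted p of 0.05 (edgeR quasi-likelihood test, Benjamini-Hochberg), 25.3% higher and 21.2% lower on MCD. Control CT08 (a) stood apart, with the lowest control level of Dpyd, Dpys and Upb1. A mitochondrial transcript, mt-Nd6, split the libraries into 2 kinds, low in 8 control and 13 MCD libraries and high in 10 and 5. In the complete exon bin files, 3.87% to 4.62% of the reads lay in no bin in the low kind and 9.96% to 14.2% in the high kind. Values by kind, or without control CT08 (a), are given beside some of the results.

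All 4 genes had a lower mean level on MCD than on the control diet, and Dpys had the largest difference. The fitted log2 differences, averaged over the 6 times with sex in the model, were -1.45 ± 0.090 (SE) for Dpys, -0.91 ± 0.16 for Upp2, -0.64 ± 0.085 for Dpyd and -0.53 ± 0.067 for Upb1. Across all genes tested the median difference was 0.017. Of those genes, 2.83% had a more negative difference than Dpys, 5.28% than Upp2, 8.60% than Dpyd and 10.7% than Upb1. In bulk tissue, fewer cells that carry a transcript and less of it per cell cannot be told apart. Scaling by library totals alone moved the median of all genes to 0.27, and the differences of the 4 genes were then -1.19, -0.65, -0.38 and -0.27 in the same order. Each of them was still negative under that scaling.

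**Figure D1:**
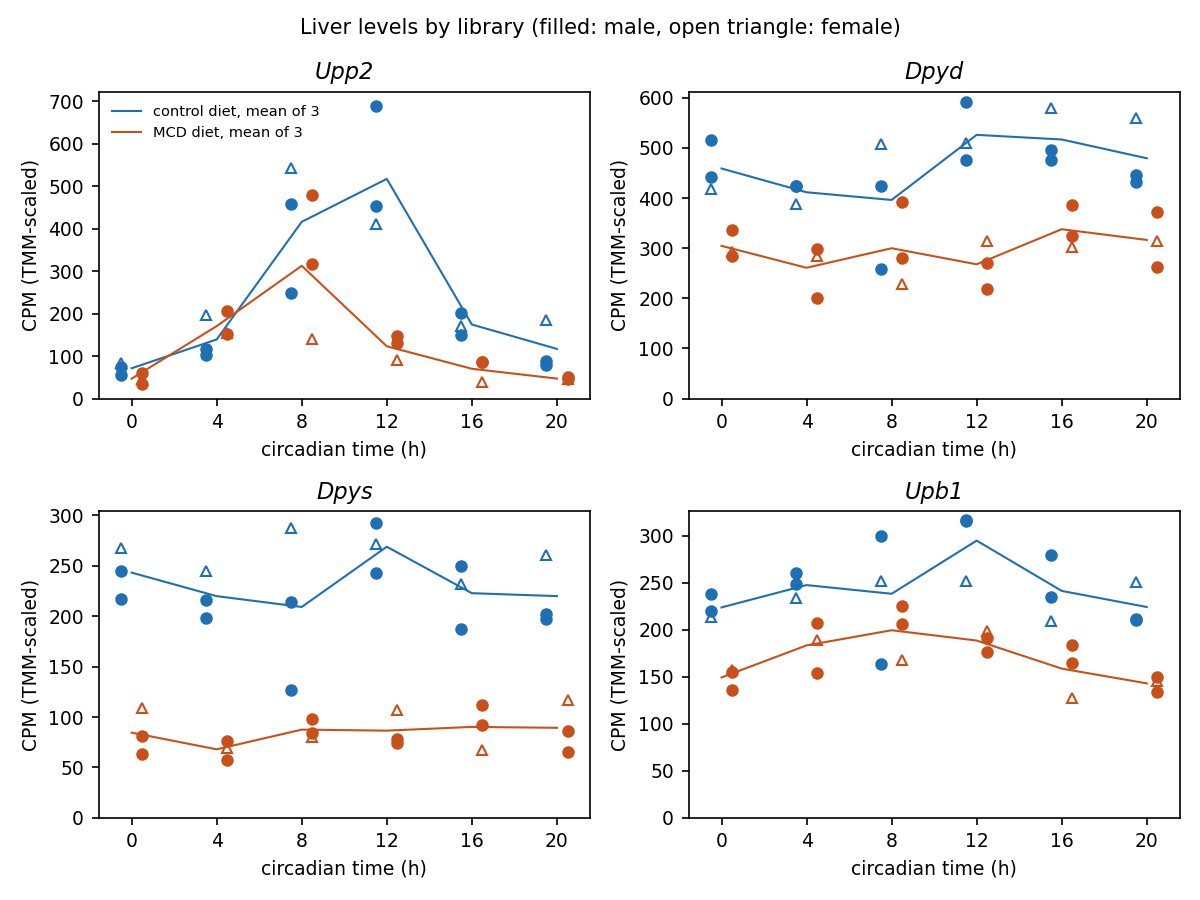
Liver level (CPM, TMM-scaled) of Dpyd, Dpys, Upb1 and Upp2 in each of the 36 libraries against circadian time, with filled points for males, open triangles for females and lines through the means of the 3 libraries of a diet and time. Dpys is lower on MCD at all 6 times without overlap, while the 2 Upp2 curves cross between CT0 and CT8 and part at CT12.

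Upp2, the enzyme that feeds uracil into the chain, was the member with the strongest daily change. On the control diet its level was 55.7, 73.6 and 84.4 CPM at CT0 and 102, 117 and 198 CPM at CT4. It stood at 247, 457 and 543 CPM at CT8 and at 410, 452 and 689 CPM at CT12. By CT16 it was back at 150, 172 and 202 CPM, and at CT20 it was 79.6, 87.4 and 184 CPM. The 6 libraries of CT8 and CT12 were thus the 6 highest of the 18.

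On MCD the highest group mean of Upp2 was at CT8, and the CT12 mean was already below those of CT4 and CT8. Levels were 35.1, 45.0 and 60.7 CPM at CT0, 152, 153 and 205 CPM at CT4, and 141, 316 and 480 CPM at CT8. At CT12 they stood at 90.8, 131 and 148 CPM, followed by 38.6, 85.6 and 86.2 CPM at CT16 and 45.3, 45.3 and 50.5 CPM at CT20. At CT4 the MCD mean was 1.23 times the control mean, and at CT12 it was 0.238 times. The diets did not overlap at CT12, CT16 and CT20 and overlapped at CT0, CT4 and CT8. At a single time, 6.64% to 16.6% of all genes had every MCD library below every control library.

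Upp2 had a 24 h rhythm on both diets in liver. The peak-to-trough change of the fitted 24 h wave was 2.76 on the log2 scale with a peak at CT10.8 on the control diet (edgeR, adjusted p = 7.49e-06), and 2.71 with a peak at CT8.08 on MCD (adjusted p = 5.8e-06). Of all genes, 17.8% passed this test on the control diet and 28.2% on MCD. The rhythm differed between the diets (edgeR, adjusted p = 0.0345), a test that 4.87% of genes passed. The fitted peak was 2.69 h earlier on MCD, and 2.38 to 3.05 h earlier when each library was left out in turn. The adjusted p of that difference ranged from 0.0161 to 0.0749 over those 36 fits. The call was lost without control CT00 1, CT04 1, CT04 2, CT12 1, CT16 2 or CT16 3 and without MCD CT04 2 or CT16 3, 8 fits in all. The call was also lost without replicate 1 (edgeR, adjusted p = 0.342) and without replicate 2 (0.384). Those fits hold 2 mice a group, except at control CT8, whose 2 males carry no replicate number and were not dropped. With the replicate number as a block the call was lost as well. That fit left out both of those males, so that only the female stood at control CT8. Its fitted peak was 2.42 h earlier on MCD. With mt-Nd6 kind as a covariate edgeR gave 0.0370, while DESeq2 gave 0.00252 and limma voom 0.0294.

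The means of Upp2 on the 2 diets lay further apart in females than in males, a difference that missed the threshold. Among control libraries Upp2 averaged 265 ± 174 CPM in females (SD, n = 6) and 226 ± 201 in males (n = 12), and on MCD 85.7 ± 51.3 in females and 150 ± 132 in males. At CT8 on MCD the female library was the lowest of the 3, at 141 CPM, while at CT8 on the control diet the female library was the highest, at 543 CPM. The diet difference was more negative in females by 1.02 ± 0.28 on the log2 scale, which missed the threshold in edgeR (adjusted p = 0.0596) and passed it in DESeq2 (0.00953), limma voom (0.0413) and edgeR with library totals alone (0.0312). Without replicate 1 the adjusted p was 0.171 and without replicate 2 it was 0.530 (edgeR). Leaving out 1 library gave adjusted p between 0.0205 and 0.157 in edgeR, under 0.05 in 6 of 36 fits, those without control CT08 (b), CT12 1, CT12 3 or CT16 2 or without MCD CT00 1 or CT04 1. Of all genes, 1.77% passed. Without the females (replicate 3) the fitted diet difference of Upp2 was -0.58 instead of -0.91.

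Dpyd, the rate-limiting step, was lower on MCD at every time and showed no call for time of day. Control libraries ranged from 257.6 to 592.0 CPM (median 461, mean 465 ± 78.2 SD, n = 18), and MCD libraries from 200.0 to 392.0 CPM (median 295, mean 298 ± 53.4, n = 18). The ratio of the MCD to the control mean was smallest at CT12, where controls stood at 476, 510.1 and 592 CPM and MCD libraries at 219.6, 270.4 and 314 CPM. It was largest at CT8, the only time at which the diets overlapped. There the controls were 258, 424 and 507 CPM and the MCD libraries 228, 279.9 and 392 CPM. Only 3 of 18 MCD libraries lay below all controls, and 17 of 18 did when control CT08 (a), at 258 CPM, was set aside. Setting aside the lowest control can only raise that count, and no share over all genes was computed for it. The adjusted p for a 24 h rhythm was 0.25 on the control diet and 0.486 on MCD, and 0.918 for a difference between them (edgeR).

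Dpys, which opens the ring, had the largest diet difference of the 4 and no overlap at any time. Control libraries ranged from 126.7 to 292.4 CPM (median 238, mean 231 ± 40.8, n = 18), and MCD libraries from 57.8 to 116.5 CPM (median 80.7, mean 84.3 ± 17.8, n = 18). At CT4, where the ratio of means was lowest at 0.309, controls stood at 199, 216 and 245 CPM and MCD libraries at 57.8, 69.6 and 76.5 CPM. At CT8, where it was highest at 0.418, controls stood at 127, 214 and 287 CPM and MCD libraries at 80.2, 84.5 and 97.8 CPM. Every MCD library was below every control library, which held for 0.217% of all genes tested (44 genes). The gap at its narrowest lay between control CT08 (a) at 126.7 CPM and the CT20 female on MCD at 116.5 CPM.

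The gene-level total of Dpys did not pass the test for a 24 h rhythm on the control diet (edgeR, adjusted p = 0.916) or on MCD (0.417), nor for a difference in rhythm (0.917). Its fitted peak-to-trough change was 0.10 on the control diet and 0.30 on MCD on the log2 scale. Female libraries held 261 ± 19.6 CPM (n = 6) and male libraries 216 ± 40.7 (n = 12) on the control diet, and 91.6 ± 21.8 against 80.7 ± 15.2 on MCD. The fitted female excess of 0.24 ± 0.093 on the log2 scale missed the threshold (edgeR, adjusted p = 0.116), where 9.44% of genes passed. It passed with scaling by library totals (0.0159) and without the female of MCD CT16 (0.0256).

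The exons of Dpys were not lowered in proportion. Bin 14, the exon specific to Dpys-203, was the bin that stood out. On the control diet it held 26 to 90 counts a library of the Dpys bin counts, a share of 0.183% to 0.735% (median 0.389%, mean 0.429 ± 0.147% SD, n = 16). On MCD it held 52 to 1454 counts and a share of 0.794% to 24.8% (median 4.96%, mean 7.60 ± 6.78%, n = 18). Every MCD library had a larger share than every control library, which held for 0.00393% of bins tested (9 bins), and 0.00525% were lower in every MCD library. By mt-Nd6 kind, the mean share on MCD was 7.16 ± 7.27% in the low kind (n = 13) and 8.75 ± 5.86% in the high kind (n = 5). On the control diet it was 0.380 ± 0.124% (n = 7) and 0.468 ± 0.158% (n = 9). Relative to the other bins of the gene, bin 14 was 3.70 higher on the log2 scale on MCD, with 3.53 to 3.68 when 1 replicate number was left out. Across all genes, 3.92% changed exon usage with diet (edgeR diffSpliceDGE, gene-level Simes p, adjusted), and 0.418% of bins did.

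**Figure D2:**
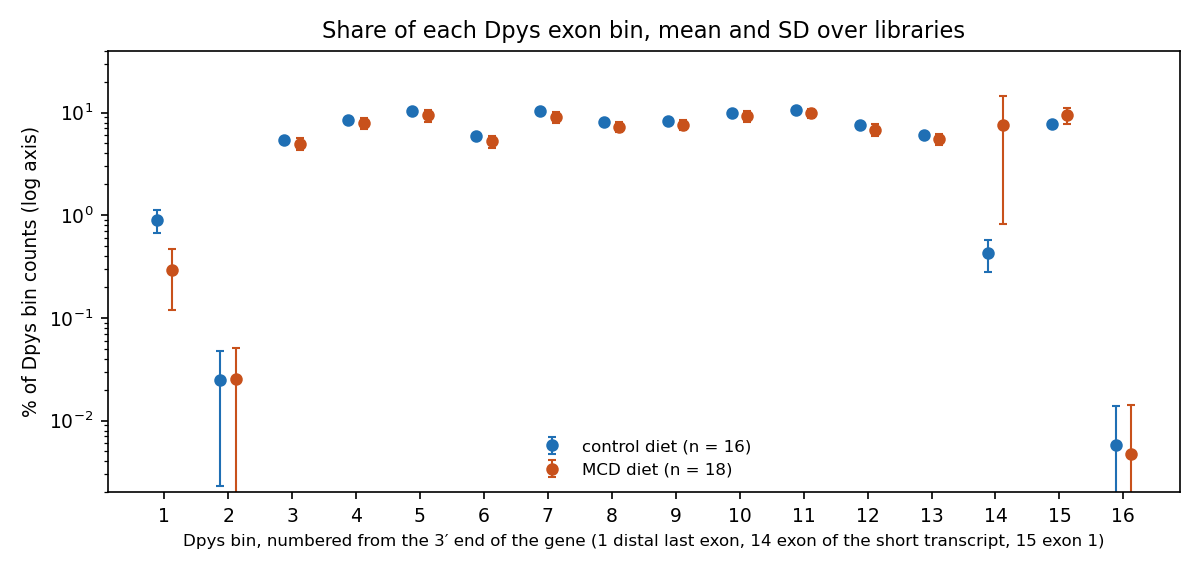
Share of the Dpys bin counts held by each of the 16 bins (log axis, % of all Dpys bin counts), as mean and SD over 16 control and 18 MCD liver libraries. Bin 14 has a mean of 0.429% on the control diet and 7.60% on MCD, and bin 1 has 0.901% and 0.293%.

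Set against the whole library, bin 14 had a higher mean on MCD, and the diets overlapped. In CPM of all bin counts of the library, bin 14 averaged 1.01 ± 0.297 on the control diet (0.426 to 1.56) and 6.41 ± 5.01 on MCD (0.783 to 17.6). On that scale 4 of 18 MCD libraries, all at CT12 or CT16, lay below the highest control. The coding exons 2 to 9, counted without bin 6, a piece of 25 bases of exon 8, averaged 172 ± 28.7 CPM on the control diet and 61.6 ± 17.2 on MCD. Set against those exons per kilobase, bin 14 came to 0.911 ± 0.313% on the control diet with a highest value of 1.56%, and to 19.7 ± 20.2% on MCD, from 1.70% to 77.1% with a median of 11.2%. The highest library was the second male of MCD CT4.

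Exon 1 belongs to both kinds of transcript and was high where bin 14 was high. The ratio of exon 1 to exon 2 counts was 1.27 ± 0.051 on the control diet (1.17 to 1.34, n = 16) and 1.76 ± 0.524 on MCD (1.21 to 3.16, n = 18). The library with the highest bin 14 share, 24.8%, also had the highest ratio, 3.16, and the 3 MCD libraries of CT16, with shares of 1.23% to 1.73%, had ratios of 1.21 to 1.38. Over the 18 MCD libraries, the log2 ratio of bin 14 to exons 3 to 9 (again without bin 6) and the log2 ratio of exon 1 to exon 2 had a Pearson r of 0.923, and over the 16 control libraries 0.294. This is a description, since both measures come from the same libraries and the same gene. Relative to the other bins, exon 1 was 0.28 higher on MCD on the log2 scale and the values of bins 3 to 13 lay between -0.20 and -0.09.

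**Figure D3:**
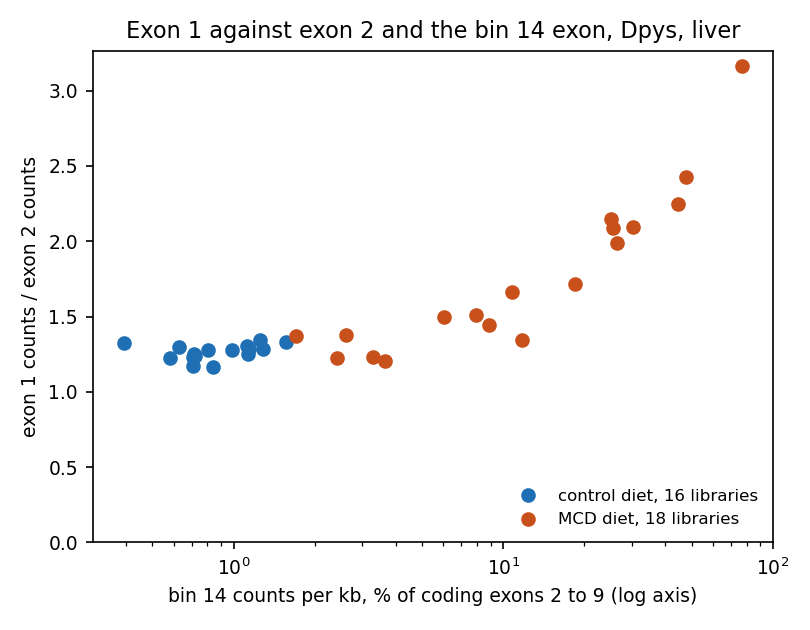
Ratio of exon 1 to exon 2 counts of Dpys against the counts per kilobase of bin 14 as a percentage of those of coding exons 2 to 9 without bin 6 (log axis), 1 point per liver library. Control libraries sit between 1.17 and 1.34 at or below 1.56%, and MCD libraries climb to a ratio of 3.16 at 77.1%.

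At the other end of the gene, the distal last exon of Dpys-201 (bin 1) was the bin with the lowest relative value on MCD, at -1.65 on the log2 scale. Its share was 0.901 ± 0.225% on the control diet and 0.293 ± 0.173% on MCD. As a share of the 2 alternative last exons, the distal one made up 6.15 ± 1.66% on the control diet and 2.22 ± 1.28% on MCD. The groups overlapped narrowly, with a lowest control of 3.82% and a highest MCD library of 4.52%. Bin 1 held 318 counts over all 18 MCD libraries, so single libraries rest on 4 to 38 counts.

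The Dpys-203 exon followed the time of day on MCD, in a comparison that did not choose the gene. The bin 14 shares on MCD were 10.1%, 10.4% and 12.2% at CT0, then 5.17%, 17.4% and 24.8% at CT4, and 4.07%, 7.88% and 16.5% at CT8. They were 0.794%, 1.13% and 4.75% at CT12, then 1.23%, 1.55% and 1.73% at CT16, and 2.75%, 3.59% and 10.8% at CT20. The 3 libraries of CT0 were close together, those of CT16 were all low, and the other times spread widely within a group. Means were 10.9 ± 1.09% at CT0 and 1.5 ± 0.25% at CT16.

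**Figure D4:**
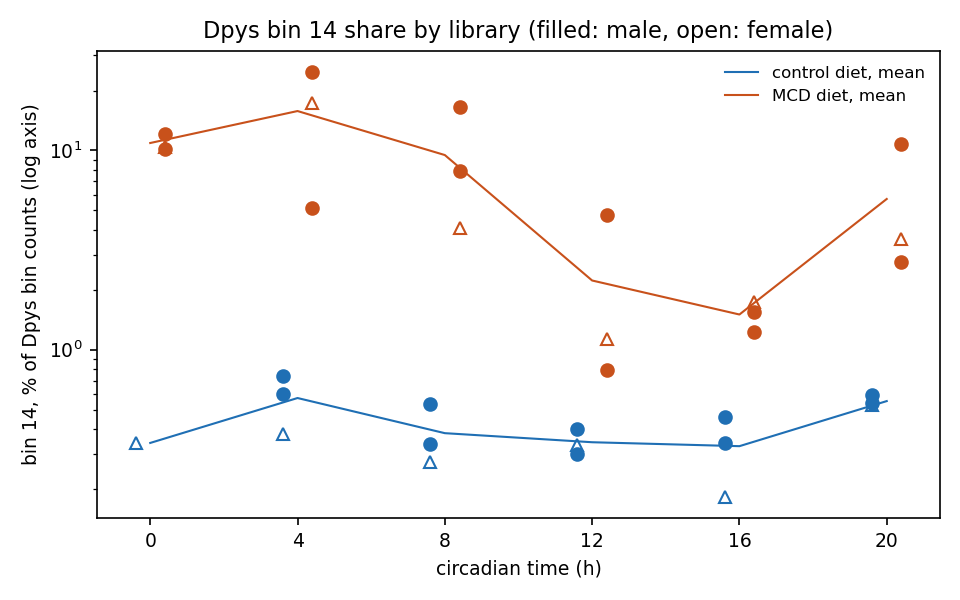
Bin 14 as a percentage of the Dpys bin counts (log axis) in each liver library against circadian time, by diet. The mean on MCD is highest at CT4 and lowest at CT16, and the control libraries reach at most 0.735%.

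Over CT0 to CT8 the share on MCD averaged 12.1 ± 6.57% (n = 9) and over CT12 to CT20 3.15 ± 3.14% (n = 9). An exact two-sided permutation test of this difference gave p = 0.00132, adjusted to 0.00527 over the 8 comparisons of bin 14 made this way. The difference of 8.91 percentage points stayed between 7.32 and 9.91 when any 1 library was left out. Among the 13 MCD libraries with low mt-Nd6 the 2 means were 12.8 ± 7.36% (n = 6) and 2.34 ± 1.43% (n = 7), and the exact permutation test gave an adjusted p of 0.00622. Among the 5 with high mt-Nd6 they were 10.6 ± 5.68% (n = 3) and 5.96 ± 6.83% (n = 2), with an exact permutation p of 0.6 (0.633 after adjustment), where the smallest p these numbers allow is 0.2. On the control diet the means were 0.457 ± 0.169% (n = 7) and 0.408 ± 0.133% (n = 9), with an exact permutation p of 0.518. The files of 2 control libraries of CT0 end early and are left out of these means, so control CT0 rests on 1 library here.

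The fit over all bins of all genes gave the same direction. With both diets averaged, bin 14 was 1.2 higher by day than by night on the log2 scale relative to the other Dpys bins (edgeR diffSpliceDGE, adjusted p = 9.73e-12 over 228743 bins, of which 0.0944% passed). It was the only 1 of 15 Dpys bins tested that passed. On MCD alone the value was 2.23 (adjusted p = 2.46e-26, 0.0896% of bins passed), on the control diet alone it was 0.16 (adjusted p = 1, 0.0258% passed). The difference between the diets was itself tested, at 2.07 with an adjusted p of 7.52e-07, where 0.078% of genes and 0.00962% of bins passed. These 3 fits were added after the data had been seen and were not rerun under the alternatives. The fit pools the spread over the bins of a gene. Its p-values therefore do not measure the spread of bin 14 alone between mice. The exact permutation test above rests on that spread and gave p = 0.00132 on MCD. The difference between the diets was not tested by permutation. Without replicate 2 the value for both diets was 0.88 with an adjusted p of 0.0328, and the gene-level F test of Dpys, at 6.18e-08 with all replicates, gave an adjusted p of 0.863.

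By sex, the bin 14 share on MCD was 6.39 ± 6.32% in females (n = 6) and 8.21 ± 7.19% in males (n = 12), with an exact permutation p of 0.633. On the control diet it was 0.339 ± 0.115% (n = 6) and 0.484 ± 0.141% (n = 10), with an exact permutation p of 0.0512 (0.102 after adjustment). In the fit over all bins the female minus male value was -0.50 (edgeR diffSpliceDGE, adjusted p = 0.646), and 0.326% of genes and 0.0345% of bins passed. The files of 2 control libraries at CT0 end early but do hold the Dpys bins. With them included the control mean was 0.453 ± 0.155% (n = 18) against 0.429 ± 0.147% (n = 16), and the highest control value was the same. Both are males, and the comparisons by sex and by time of day were not repeated with them.

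Upb1, the last enzyme of the chain, was lower on MCD and showed a modest day curve there. Control libraries ranged from 163.7 to 316.8 CPM (median 244, mean 245 ± 39.7, n = 18), and MCD libraries from 127.8 to 225.1 CPM (median 166, mean 171 ± 28.3, n = 18). At CT12 controls stood at 252, 316 and 317 CPM and MCD libraries at 176, 191.0 and 199 CPM. At CT8 the diets overlapped, with controls at 164, 252 and 299 CPM and MCD libraries at 168, 206 and 225 CPM. The lowest of those controls was control CT08 (a). With it 8 of 18 MCD libraries lay below all controls, against 17 of 18 without it. Here too, setting aside the lowest control can only raise the count.

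On MCD the Upb1 group means went from 149 CPM at CT0 to 199.6 at CT8 and 143 at CT20, a fitted 24 h change of 0.51 on the log2 scale with a peak at CT8.54 (edgeR, adjusted p = 0.0161). The call held in all 36 fits without 1 library (0.00177 to 0.0486) and was lost without any of the 3 replicate numbers (0.0702 to 0.211). On the control diet the adjusted p was 0.271, and 0.0314 without control CT08 (a). The difference in rhythm between the diets had an adjusted p of 0.563. Over the 18 MCD libraries, log2 levels of Upb1 and Upp2 had a Pearson r of 0.869, the highest of any pair of the 4 genes within a diet, and both genes shared the time of day in those libraries. Dpyd and Dpys had r = 0.782 on the control diet and 0.608 on MCD.

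Upb1 also had a time-dependent exon reading. Its bins 10 and 11 are parts of exon 4 that read on past the usual splice site, bin 10 in Upb1-203 and Upb1-204 and bin 11 in Upb1-203 alone. They held 7.29 ± 1.39% of the Upb1 bin counts over CT0 to CT8 and 5.11 ± 1.89% over CT12 to CT20 on MCD (n = 9 each), and 6.49 ± 1.95% (n = 7) against 4.44 ± 1.27% (n = 9) on the control diet. The low point was CT12 on MCD, at 3.16% to 3.47%, and CT20, at 6.22% to 8.32%, was not below CT8, at 5.18% to 7.13%. The split at CT12 thus does not follow the whole curve. Relative to the other bins and with both diets averaged, bin 10 was 0.55 higher over CT0 to CT8 (edgeR diffSpliceDGE, adjusted p = 0.00655) and bin 11 was 0.58 higher (adjusted p = 0.000304). On MCD alone the adjusted p was 0.0949 for bin 10 and 0.0486 for bin 11, and on the control diet alone 1 and 0.669. The day difference of neither bin differed between the diets by test (adjusted p = 1 for both).

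Within Dpyd, 0 of 31 bins tested passed for sex or for day against night (edgeR diffSpliceDGE), and at an unadjusted p under 0.05 there were 0 and 2. Of the 23 Upp2 bins tested, 0 passed either test, with 0 and 2 at an unadjusted p under 0.05. The Upp2 locus has 2 groups of annotated first exons. Bins 1 to 13 are upstream exons, and bins 14 to 16 belong to the first exon of Upp2-201, at 2:58754942-58755422 (GRCm38). The upstream bins held 0.757 ± 0.572% of the Upp2 counts in control livers (n = 16) and 1.97 ± 1.47% in MCD livers (n = 18). In CPM of all bin counts they held 1.15 ± 0.361 and 1.58 ± 0.350, a higher mean on MCD, where the mean Upp2 total was lower.

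In the SCN most Upp2 counts lay in bins 17 to 32, as in liver (61.0% and 92.9%), and the tissues parted in the bins before them. The upstream bins held 38.9% of all Upp2 bin counts and bins 14 to 16 held 0.125%, against 0.703% and 6.36% in liver. In CPM of all bin counts the upstream bins held 9.96 ± 1.76 in control SCN and 10.4 ± 2.13 in MCD SCN (n = 18 each). The difference in bins between the tissues was not tested. At gene level Upp2 stood at 26.1 ± 4.9 CPM in control SCN and 26.3 ± 4.2 in MCD SCN, and its diet difference was 0.016 ± 0.070 on the log2 scale (edgeR, adjusted p = 1). A 24 h rhythm passed on the control diet (peak-to-trough 0.54, peak at CT6.94, adjusted p = 0.0245, where 15.1% of SCN genes passed) and missed the threshold on MCD (adjusted p = 0.169), and the difference between those rhythms was not tested. Neither Upp2 nor Dpyd passed the SCN test for sex, with adjusted p of 0.63 and 0.881 where 9.89% of genes passed.

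**Figure D5:**
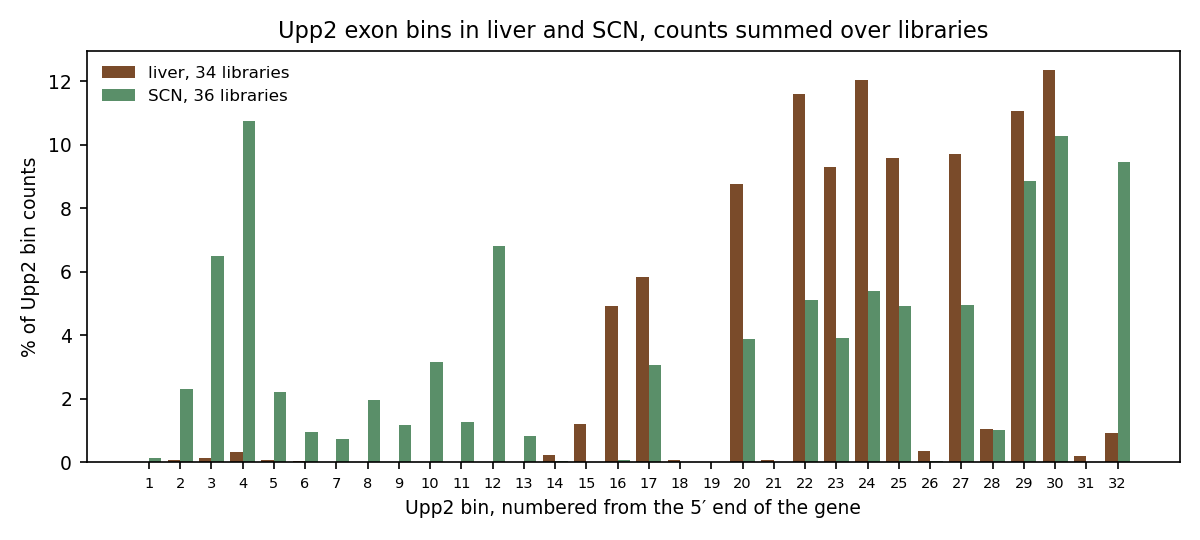
Share of the Upp2 bin counts (%) held by each of the 32 bins, numbered from the 5′ end of the gene, in liver and in SCN summed over libraries. Upstream bins 1 to 13 hold 38.9% of the counts in SCN and 0.703% in liver.

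Dpyd was low in the SCN, at 4.03 ± 1.05 CPM on the control diet and 4.66 ± 0.93 on MCD (n = 18 each), with a diet difference of 0.23 ± 0.13 on the log2 scale (edgeR, adjusted p = 1). Of all SCN genes 0.0635% passed that test, which is 10 of 15759, with 746 at an unadjusted p under 0.05, 48 by DESeq2 and 20 by limma voom. Dpys and Upb1 were not analysed at gene level in the SCN. The SCN bin files held 835 Dpys counts over 36 libraries, all in bins 1 to 8, the 3′ end of the gene, with 0 in bins 9 to 16. A count of 0 of 835 allows a share of up to 0.359% for those bins (3 counts, counting error only). Upb1 had 620 counts in all.

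Genes on either side of the chain were called in both directions, at shares near those over all genes. Of 16 genes tested that supply uridine, thymidine and uracil or use beta-alanine and beta-aminoisobutyrate, 4 fell and 3 rose with MCD (edgeR, adjusted over all genes). That is 25% lower and 18.8% higher, against 21.2% and 25.3% of all genes tested. Those that fell were Tymp (thymidine phosphorylase, -0.83 ± 0.111 log2, adjusted p = 1.01e-06), Abat (the aminotransferase of GABA and beta-alanine, -0.69 ± 0.107, 7.32e-06), Aldh6a1 (methylmalonate semialdehyde dehydrogenase, -0.53 ± 0.064, 2.15e-07) and Agxt2 (an aminotransferase that uses beta-aminoisobutyrate, -0.34 ± 0.069, 0.000182). Those that rose were Nt5c (a deoxyribonucleotidase, 0.27 ± 0.059, 0.000442), Nt5c3b (a nucleotidase, 1.30 ± 0.128, 8.46e-09) and Dctd (dCMP deaminase, 1.82 ± 0.36, 0.000168). Dctd was scarce, at 0.181 CPM on the control diet and 0.648 on MCD. The median difference over the 16 genes was 0.14. With library totals alone 11 of the 16 were higher and 3 lower.

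Among those 9 genes that did not pass, Upp1, the other uridine phosphorylase, stood at 1.27 ± 0.236 CPM on the control diet and 1.44 ± 0.436 on MCD (adjusted p = 0.235, edgeR). Cda (cytidine deaminase) stood at 8.27 ± 3.51 and 9.82 ± 4.48 CPM (adjusted p = 0.266). Nt5e, an ectonucleotidase, differed by sex, with a female excess of 2.65 on the log2 scale (adjusted p = 1.97e-07, edgeR). Tymp had a 24 h rhythm on both diets (adjusted p = 4.3e-06 and 4.4e-06, edgeR), a test that 17.8% and 28.2% of all genes passed. Upp1 did not pass it on either diet (0.554 and 0.0694).

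Of 12 pyrimidine salvage genes tested, 5 were higher and 5 lower on MCD (median 0.077). That is 41.7% each way, against 25.3% higher and 21.2% lower of all genes tested. With library totals alone 6 were higher and 1 lower, and the differences of Uck2 and Uckl1 turned positive. The largest falls were those of Tk1 (thymidine kinase 1, -0.91 ± 0.122, adjusted p = 1.09e-06), Uck1 (uridine-cytidine kinase 1, -0.46 ± 0.111, 0.00122) and Slc29a1 (a nucleoside transporter, -0.33 ± 0.102, 0.00947) in edgeR. The largest rises were those of Slc29a2 (0.76 ± 0.111, 3.34e-06), Uprt (0.41 ± 0.094, 0.000701) and Slc28a2 (0.38 ± 0.152, 0.0441), all at under 3 CPM. Of 18 pyrimidine synthesis genes, 9 were higher and 5 lower (median 0.12), which is 50% and 27.8% against 25.3% and 21.2% of all genes, and 13 and 1 with library totals alone, where those of Dhodh and Dtymk turned positive. Ctps (CTP synthase 1, 1.04 ± 0.134, adjusted p = 5.84e-07, edgeR), Cmpk2 (0.82 ± 0.154, 8.84e-05) and Ctps2 (0.78 ± 0.087, 5.18e-08) rose most. Dctpp1 (-0.36 ± 0.047, 9.53e-07) and Rrm2b (-0.25 ± 0.075, 0.00719) were among those that fell.

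Purine breakdown, the parallel pathway, had 4 of 14 genes lower and 3 higher on MCD (median -0.053), which is 28.6% and 21.4% against 21.2% and 25.3% of all genes, and 4 and 8 with library totals alone. Uox (urate oxidase) fell from 1615 ± 353 to 877 ± 324 CPM (-0.94 ± 0.051 log2, adjusted p = 3.07e-13, edgeR), and the enzymes of the following steps, Urah (-0.49 ± 0.064, 6.16e-07) and Urad (-0.67 ± 0.139, 0.000289), also fell. Xdh (xanthine dehydrogenase, 0.41 ± 0.045, 3.45e-08), which makes urate, rose, as did Ada (0.50 ± 0.103, 0.000273) and Ampd3 (0.48 ± 0.092, 0.000102).

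Marker lists of liver cell types are given beside the shares over all genes, of which 25.3% were higher and 21.2% lower on MCD, or 10633 and 1540 of 20249 genes with library totals alone. All 8 macrophage markers tested rose on MCD (median 0.85), and their summed level was 227 to 533 CPM on the control diet and 317 to 717 on MCD. Of 8 hepatocyte markers 5 fell (median -0.31), including Serpina1a at -0.77 ± 0.083 under TMM (edgeR, adjusted p = 3.31e-08). Alb and Hnf4a did not pass under TMM and stood at 0.14 and 0.08. With library totals alone 2 fell, Serpina1a among them, and 3 rose. Summed hepatocyte markers were 87504 to 128969 CPM on the control diet and 63511 to 128670 on MCD. Periportal markers had 4 of 8 lower and 2 higher, and pericentral markers 1 of 8 lower and 2 higher, the latter 25%, against 1 and 2 and then 1 and 5 with library totals alone. Of the markers tested, 2 of 7 for stellate cells and fibroblasts, 3 of 6 for endothelium and 1 of 5 for bile duct cells were higher (28.6%, 50% and 20%), against 7, 6 and 1 with library totals alone. Red cell markers had 4 of 5 lower under both scalings. Of 7 kidney tubule markers, the other main site of the pathway, 2 were in the table, with a summed level of 0 to 4.47 CPM on the control diet and 0 to 2.44 on MCD. Of the 16 clock genes tested, 16 had a 24 h rhythm on the control diet and 15 on MCD, and 3 were higher and 4 lower on MCD, against 5 and 0 with library totals alone. The 5 relatives of Dpys (Dpysl2 to Dpysl5 and Crmp1) had 0 calls by edgeR, DESeq2 or limma voom and 0 at an unadjusted p under 0.05, with 1 higher when library totals alone were used. The part of these changes in the levels of the 4 enzymes was not tested.

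The genes most like each member across the 36 liver libraries, of 13839 with a mean of at least 1 CPM, were found by Pearson's r of log2 CPM. For Dpys they were Bphl (r = 0.976), Pipox (0.975) and Slc27a5 (0.964). For Dpyd they were Slc27a5 (0.954), Cd302 (0.950) and Gstz1 (0.946), and for Upb1 Ccs (0.950), Cisd1 (0.939) and Akr1c12 (0.934). Upp2 had looser company, with Pcsk4 (0.870), Slc38a3 (0.862) and 1700001L05Rik (0.856). For the bin 14 share, over the 32 libraries that could be matched by name, the highest were Meiob (0.841), Cdc42bpa (0.837) and Rnf220 (0.821), and the lowest Frg2f1 (-0.835), Katnal1 (-0.830) and 9230112E08Rik (-0.817). These libraries share diet and time of day, so the values describe likeness only.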

How the data were processed

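Per the file headers, the deposited files hold raw counts: 1 table of reads per gene for each tissue, and 1 file of reads per exon bin for each library. No normalization had been applied by the authors to these counts. The submitters' processing notes name Trimmomatic, HISAT2, StringTie, DESeq2 and build GRCm39, with no role or version. Libraries were made from polyadenylated RNA with a stranded kit per the labels' protocols, and whether counting used the strand is not given in the sources used here. Antisense and opposite-strand genes overlap Dpys (Gm16291) and Upb1 (Gucd1), with 0 shared exon bases.

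Gene counts were tested with edgeR 4.0.16 in R 4.3.3 (quasi-likelihood, TMM, filterByExpr with a minimum count of 10), with 12 groups of diet and time plus sex in the model, over 20249 liver and 15759 SCN genes. P-values were adjusted by Benjamini-Hochberg over all genes, threshold 0.05. For rhythm, the cosine and sine of 24 h were contrasts over the 6 time means of a diet. Exon usage was tested with diffSpliceDGE over 14108 genes and 228743 bins in the 34 liver libraries with a complete file. Those files held 44.9 to 82.6 M bin counts. The test pools the spread over the bins of a gene, so a bin-level p does not measure the spread of that bin alone. Single values were compared by exact permutation over libraries. DESeq2 1.42.0 (no independent filtering) and limma 3.58.1 (voom) were alternatives, with other scalings, no filter, a replicate block, mt-Nd6 kind as a covariate, and libraries or replicates left out. The scripts were tested on simulated data.

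The bin files carry no coordinates that were used. Bins were matched to GENCODE M21 (GRCm38) by their number, which was the same for 92.9% of the 32952 genes with over 1 bin and for all 4 members (33, 16, 18 and 32 bins). Sequences and positions come from that annotation. Columns with 1 shared name (control CT08) were used as replicates without a number. In the gene fits the replicate block left them out, and leaving out a replicate number did not drop them.

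The 4 members and the gene lists were chosen with earlier results of these data known. Genes named from a list are the up to 3 with the largest rise and the up to 3 with the largest fall among those past the threshold. Any gene of the supply and use list may be named too. Also named are Alb and Hnf4a, which did not pass, the relatives of Dpys, and genes whose difference turned positive with library totals alone. In the marker lists the rule was not followed in full. Likeness is Pearson's r of log2 CPM with a prior count of 2. A gene that the naming rule would include is not reported here.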

Additional observations from a re-analysis of the deposited data

Results flagged for a closer look

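The 24 h rhythm of Upp2 in liver differed between the diets by a test of the difference itself (edgeR, adjusted p = 0.0345). The fitted peaks were at CT10.8 on the control diet and CT8.08 on MCD. The call was lost with the replicate number as a block, a fit that left only the female at control CT8. The day minus night use of Dpys bin 14 differed between the diets as well, at 2.23 on MCD and 0.16 on the control diet on the log2 scale (edgeR diffSpliceDGE, adjusted p of the difference 7.52e-07). That bin 14 fit was added after the data had been seen, was not rerun under the alternatives and pools the spread over the bins of a gene. No cause of either difference was tested.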

How the results depend on the processing

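The diet differences of the 4 genes kept their sign in all alternatives run. Upb1 moved from -0.53 to -0.27 and Dpyd from -0.64 to -0.38 with library totals alone. Under that scaling 87.3% of genes called for diet were higher on MCD, against 54.4% with TMM. Upp2 moved from -0.91 to -0.58 without replicate 3. The bin 14 results kept their direction in the alternatives run, which covered diet, sex, and day against night with both diets averaged. Day against night on a single diet, and its difference between the diets, had no alternative in the fit over all bins. Counts of genes called that moved by more than 1.5 times follow. The fits without replicates hold fewer mice, as do the gene fits with the replicate block, which left out the control CT8 males. The cause was not tested in the others. For exon usage by day and night on a single diet, and for its difference between diets, the count by the F test also moved that far and is not listed. The difference in rhythm called 986 genes, 1839 with DESeq2, 651 with the replicate block, 4 to 537 without 1 replicate number and 634 to 1243 without 1 library. Rhythm on the control diet called 3611, with 565 to 2889 and 2863 to 3957, and on MCD 5704, with 2448 to 3624 and 4943 to 6240. The sex term called 1911, with 664 to 837 and 1396 to 2478, and the sex by diet term 359, with 712 by DESeq2, 19 to 118 and 229 to 497. The SCN diet test called 10, with 48 by DESeq2, 20 by limma voom, 4 with the replicate block and 0 to 14 without 1 replicate number. The SCN sex test called 1558, with 20 without replicate 1 and 1081 without replicate 2. SCN rhythm on the control diet called 2378, with 1248 with the replicate block and 811 to 2157 without 1 replicate number, and on MCD 2544, with 775 to 1687. Exon usage by diet called 553, with 327 with mt-Nd6 kind as a covariate, 909 by the gene-level F test and 226 to 392 without 1 replicate number. By sex it called 46, with 71 by the F test and 23 to 35, and day against night 131, with 263 by the F test, 38 on the control diet alone and 61 to 298. Without replicate 3, the exon contrasts used the 5 times at which both diets kept a complete file. By the gene-level F test, Dpys was called for day against night (adjusted p = 6.18e-08) and was not without replicate 2 (0.863).

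Replicate numbers were not taken to pair the libraries, since not every pair correlated; number 3 was also the female of each group. Over 165 pairs with the same number, deviations from group means had a mean correlation of 0.137 (-0.366 to 0.558), against -0.0677 for other pairs, and 15 of 33 libraries were closest to their own number. With the number as a block, which left only the female at control CT8, the fitted Upp2 peak was 2.42 h earlier on MCD. The call for a difference in rhythm was lost there. Depth limits the bins with few counts, such as Dpys bin 1 on MCD with 318 counts over 18 libraries.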
